A study of Mus musculus with 6 samples.

Results

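The 10 genes described here are imprinted genes with roles in growth control, taken from the deposited count table by their symbols: Kcnq1ot1, Cdkn1c, Phlda2, H19, Igf2r, Peg3, Mest, Grb10, Peg10 and Impact. All 10 were among the 31017 genes of the table, and 5 of them (Kcnq1ot1, Phlda2, Igf2r, Mest and Impact) had enough counts to be tested. The data are poly(A) RNA-seq of 4T1 cells, a mouse mammary carcinoma line, grown in 3D collagen I. The 3 ETV4 KO samples had been nucleofected with Cas9 and guides against Etv4, the gene of an ETS transcription factor, and the 3 control samples with Cas9 and control guides. All 3 ETV4 KO libraries carry the code c39, which is not explained in the labels. If it names a single clone, differences particular to that clone and those of the Etv4 edit cannot be told apart in any value below. Nothing states that replicates came from separate cultures, so p-values reflect only the spread among these libraries, and that spread could be technical. The collagen density is given as either of a pair of values without saying which applied here.

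An imprinted gene is transcribed mainly from the copy inherited from a given parent, because DNA methylation laid down in the egg or sperm marks a control region of the cluster on only that or the other copy. Imprinted genes lie in clusters, and several clusters hold a long noncoding RNA that keeps nearby genes silent on its own chromosome copy; Kcnq1ot1 is such an RNA in the mouse, transcribed from the paternal copy against the direction of Kcnq1. Many maternally expressed members restrain fetal and placental growth, and many paternally expressed members favour it. Read counts per gene do not separate the parental copies, so the levels below are the sum of both.

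The total count was 24356286 to 29042569 per ETV4 KO library and 22355015 to 26669985 per control library. Etv4 itself had 87.4, 89.5 and 92.3 TMM-scaled CPM (reads scaled to library size) in ETV4 KO cells, against 133.5, 134.7 and 133.3 CPM in control cells. Its log2 fold change was -0.58 (SE 0.036). Expressed genes of its 10 Mb bin on chromosome 11 were lower too, with a median log2 fold change of -0.46. How much of the fall was particular to Etv4 was not tested. A whole-gene count does not show whether a Cas9 cut altered the protein. The groups differed widely: 71.1% of the 12076 tested genes were called at an edgeR quasi-likelihood adjusted p under 0.05, 35.0% higher and 36.0% lower in ETV4 KO cells. The 6 epithelial markers of the cell line summed to 4110 to 4309 CPM in ETV4 KO libraries and 5465 to 5622 CPM in control libraries. Marker sums of other cell types were low: leukocyte and macrophage genes reached 9.41 to 11.4 CPM in ETV4 KO and 9.83 to 10.5 CPM in control libraries (8 genes, with Adgre1, Lyz2 and Cd3e at 0 counts). The 6 endothelial genes, with Cldn5 at 0, reached 0.384 to 0.444 CPM in ETV4 KO and 0.396 to 0.862 CPM in control libraries. The 8 fibroblast and mural genes, with Lum at 0, reached 13.2 to 14.7 CPM in ETV4 KO and 9.96 to 11.8 CPM in control libraries. Most of that sum was Pdgfra, at a mean of 13.3 CPM in ETV4 KO and 10.7 CPM in control cells, and most of the leukocyte sum was Cd68, at 9.84 CPM in ETV4 KO and 9.55 CPM in control cells. The part of these sums in the results was not tested.

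The promoters of the tested members are shown because the 2 groups differ in an ETS factor and because imprinted promoters are known for their CpG content. RefSeq start sites on GRCm38.p6 were found for 6 of the 10 members, and the 250 bases before the start of the 4 tested genes among them are given here 5′ to 3′. For Mest, which has 3 windows in the table, the first of a near-identical pair with the most CpG is shown. Capitals mark matches, on either strand, to the ETS cores AGGAAG and CCGGAA or to TGCCGC, the core bound by the imprint-keeping zinc finger protein ZFP57.
Kcnq1ot1 (chr7:143296548-143296797, minus strand): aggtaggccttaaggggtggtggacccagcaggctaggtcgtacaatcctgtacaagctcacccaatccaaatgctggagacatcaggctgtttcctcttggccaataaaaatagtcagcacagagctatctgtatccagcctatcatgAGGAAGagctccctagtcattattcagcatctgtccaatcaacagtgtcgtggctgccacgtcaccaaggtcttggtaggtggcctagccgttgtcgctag
Phlda2 (chr7:143502525-143502774, minus strand): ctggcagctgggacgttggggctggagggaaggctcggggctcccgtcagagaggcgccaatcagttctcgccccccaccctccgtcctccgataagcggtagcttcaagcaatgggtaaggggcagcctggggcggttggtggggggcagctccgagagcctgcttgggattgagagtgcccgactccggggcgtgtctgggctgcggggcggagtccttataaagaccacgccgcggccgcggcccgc
Igf2r (chr17:12769707-12769956, minus strand): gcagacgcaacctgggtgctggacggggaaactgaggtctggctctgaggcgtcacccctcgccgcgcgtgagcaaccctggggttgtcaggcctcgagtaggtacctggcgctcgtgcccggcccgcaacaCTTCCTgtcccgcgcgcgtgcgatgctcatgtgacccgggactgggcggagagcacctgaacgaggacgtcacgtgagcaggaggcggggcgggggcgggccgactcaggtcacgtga
Mest (chr6:30737800-30738049, plus strand): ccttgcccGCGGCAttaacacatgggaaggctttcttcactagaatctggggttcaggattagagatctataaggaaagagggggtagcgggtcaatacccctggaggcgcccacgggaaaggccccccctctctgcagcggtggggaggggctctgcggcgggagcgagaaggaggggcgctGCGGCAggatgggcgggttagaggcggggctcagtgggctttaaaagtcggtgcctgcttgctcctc

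The Kcnq1ot1 window held 1 AGGAAG on the strand of the gene, the Igf2r window held 1 on the opposite strand (read as CTTCCT), and the Phlda2 window held no match to any of the 3 motifs. AGGAAG was present in 29.5% of 32851 promoter windows of the same length, CCGGAA in 12% and TGCCGC in 8.68%. The Mest window held 2 TGCCGC matches on the strand opposite to the gene. Of its windows not shown, that at chr6:30737803-30738052 likewise held 2 TGCCGC and no AGGAAG, and that at chr6:30733256-30733505 held 1 AGGAAG. CpG pairs numbered 5 in the Kcnq1ot1 window, 14 in that of Mest, 21 in that of Phlda2 and 27 in that of Igf2r, against a median of 6 over all windows. A match describes letters only.

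Among the 5 tested members, 3 were called higher in ETV4 KO cells (Kcnq1ot1, Igf2r and Impact), 1 was called lower (Mest) and 1 was not called (Phlda2). The shares of all tested genes called in each direction were 35.0% and 36.0%, so being called does not set these genes apart. With the median of the expressed genes in each gene's 10 Mb bin taken out, 2 were called higher and 3 lower. In bulk RNA, fewer cells expressing a gene and less RNA per cell cannot be told apart. The sizes of the changes were spread over the range of all genes: 1.71% of tested genes had a log2 fold change at or below that of Mest, 2.73% at or above that of Kcnq1ot1, 8.73% at or above that of Impact and 14.2% at or above that of Igf2r. The median log2 fold change of the 5 was 0.45, the value of Igf2r, against 0.00 for all tested genes. With the bin medians taken out the median of the 5 was -0.11. The other 5 members, Cdkn1c, H19, Peg3, Grb10 and Peg10, were at or near 0 counts.

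**Figure D1:**
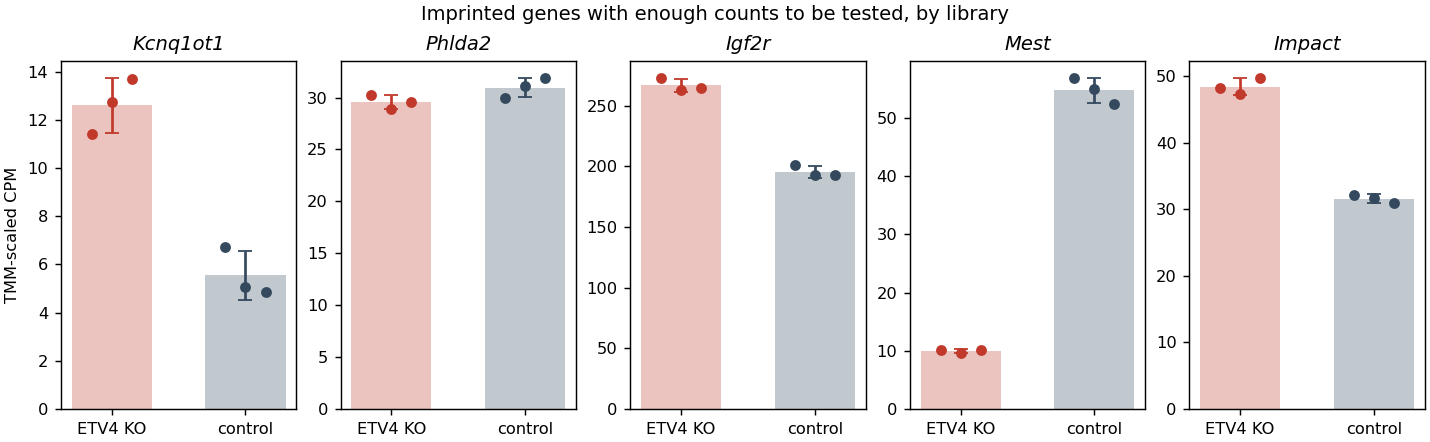
TMM-scaled CPM of the 5 tested imprinted genes in each library (points), with the group mean (bars) and SD (error bars, n = 3 per group). ETV4 KO and control points do not overlap for Kcnq1ot1, Igf2r, Mest and Impact, and overlap for Phlda2 at 28.9 to 30.3 CPM in ETV4 KO and 30.0 to 31.9 CPM in control libraries.

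**Figure D2:**
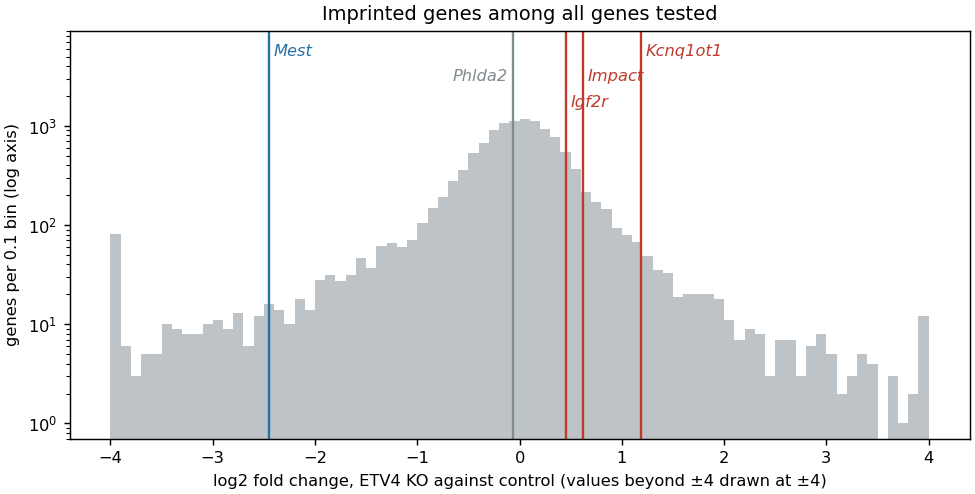
Distribution of the log2 fold change, ETV4 KO against control, over the 12076 tested genes (log count axis, bins of 0.1, values beyond 4 in either direction drawn at the edge), with lines at the 5 tested imprinted genes. Mest at -2.45 lies far in the lower tail, Kcnq1ot1 at 1.18 in the upper tail and Phlda2 at -0.07 near the centre.

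The Kcnq1 domain was examined first, since it holds a noncoding RNA and the genes it is known to silence in the mouse. Kcnq1ot1 was higher in each ETV4 KO library than in any control, while the Phlda2 groups overlapped and Cdkn1c was barely detected in either group. Kcnq1ot1 (chr7:143203458-143296549, minus strand, mm10) had 326, 315 and 327 counts in ETV4 KO libraries, against 156, 137 and 110 counts in control libraries. This was 11.4, 12.7 and 13.7 CPM in ETV4 KO cells and 6.72, 5.06 and 4.84 CPM in control cells. Each ETV4 KO library lay above each control library, and control replicate 1 was the highest of the controls. The log2 fold change was 1.18 (SE 0.11, n = 3 per group; edgeR adjusted p = 4.81e-11), a 2.27-fold rise. The annotated transcript is unspliced and 93.1 kb long, so per kilobase of exon it held only 0.135 CPM in ETV4 KO and 0.0595 CPM in control cells.

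Phlda2 encodes a small pleckstrin homology protein that restrains placental growth and is expressed from the maternal copy. It lies at chr7:143501545-143503150 on the minus strand and had 867, 716 and 706 counts in ETV4 KO libraries, against 695, 842 and 724 counts in control libraries. Scaled to 30.3, 28.9 and 29.5 CPM in ETV4 KO cells and 30.0, 31.1 and 31.9 CPM in control cells, the groups overlapped. Its log2 fold change was -0.07 (SE 0.053, 95% interval -0.17 to 0.04, edgeR adjusted p = 0.274). Per kilobase it was at 26.4 CPM in ETV4 KO and 27.6 CPM in control cells, far above Kcnq1ot1. Once the median of its 10 Mb bin was taken out, Phlda2 was called lower (-0.25, edgeR adjusted p = 0.000122); this treats the local median as known.

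Cdkn1c encodes p57, an inhibitor of cyclin-dependent kinases that is also expressed from the maternal copy. It had 0 counts in each ETV4 KO library, against 1, 0 and 2 counts in the control libraries (chr7:143458339-143461050, minus strand). With 3 counts over a group as the limit that a count of 0 allows, its level was at most 0.0388 CPM in ETV4 KO cells. A difference between the groups was not detectable at this depth. Cdkn1c was near 0 in the controls too, where Kcnq1ot1 was lower, and a link between the levels was not tested.

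The balance of Kcnq1ot1 to Phlda2 was taken within each library, which removes library scaling. The log2 ratio of their CPM was -1.41, -1.18 and -1.11 in ETV4 KO replicates 1, 2 and 3, and -2.16, -2.62 and -2.72 in control replicates 1, 2 and 3. The groups did not overlap, with means of -1.24 ± 0.16 in ETV4 KO and -2.50 ± 0.30 in control cells (SD, n = 3 each). The difference of 1.26 gave p = 0.1 in an exact two-sided permutation test over samples, the smallest p that 3 against 3 allows.

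Kcnq1ot1 is annotated wholly inside the span of Kcnq1, a potassium channel gene on the other strand, and 121 of its 93092 bases overlap Kcnq1 exons. Libraries were made with a stranded kit, but the strand setting of the counting is not given, so reads from unspliced Kcnq1 RNA and from Kcnq1ot1 cannot be told apart. Counts assigned to Kcnq1 were 0, 2 and 1 in ETV4 KO libraries, against 12, 7 and 10 in control libraries, too few for the test. On these few counts Kcnq1 was lower in the group where Kcnq1ot1 was higher, and a link between them was not tested.

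Of the 19 listed genes of the domain 13 were tested, Kcnq1ot1 included. Of these 6 were called higher and 4 lower, where 71.1% of all tested genes were called. The median log2 fold change of the 13 was 0.06. With the bin medians taken out 6 were higher and 7 lower, with a median of -0.13. On the Kcnq1 side, the tetraspanin gene Cd81 rose by 0.86 (SE 0.037), at 137.6 ± 3.85 CPM in ETV4 KO and 75.8 ± 0.66 CPM in control cells (SD, n = 3 each), and Tssc4 rose by 0.29. Trpm5, a cation channel gene, was not tested and had 12, 7 and 5 counts in ETV4 KO libraries against 1, 2 and 2 in control libraries. On the Cdkn1c side, the transporter gene Slc22a18, which is imprinted with Cdkn1c and Phlda2, fell on the basis of few counts: 6, 3 and 2 in ETV4 KO libraries, against 17, 35 and 11 in control libraries. Its log2 fold change was -2.55 (SE 0.47; -2.06 without control replicate 2, the sample that moved it most). The histone chaperone gene Nap1l4 had 0.06 (SE 0.034, edgeR adjusted p = 0.0924) and was called lower, at -0.13, with the bin median taken out.

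Farther out, the cysteinyl-tRNA synthetase gene Cars rose by 0.28 and the oxysterol-binding protein family gene Osbpl5 by 0.43. Among the tandem receptor genes, Tnfrsf22 rose by 0.88, Tnfrsf23 was at -0.13 and Tnfrsf26 was at -0.54 (SE 0.27, edgeR adjusted p = 0.0702). The call of Tnfrsf23 as lower was lost without control replicate 1 (edgeR adjusted p = 0.155), and Tnfrsf26 was called lower without control replicate 2 (-0.70), with library size only (-0.59) and with the bin median taken out (-0.71); reads of these related copies may be shared between them. Nadsyn1, an NAD synthetase gene, fell by 0.62 and Dhcr7, a gene of cholesterol synthesis, fell by 0.14. Tspan32 had at most 1 count per library, and Ascl2 and Mrgprg had 0 counts in all 6 libraries.

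**Figure D3:**
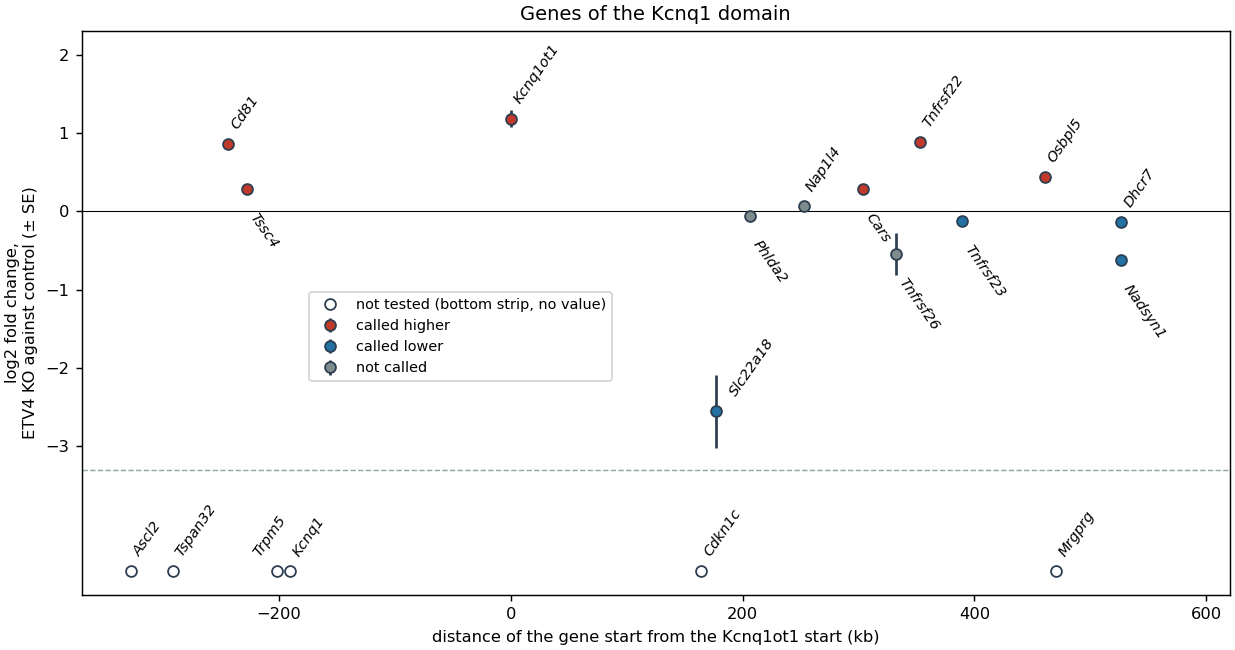
Log2 fold change (ETV4 KO against control, ± SE) of the genes of the Kcnq1 domain against the distance of each gene start from the Kcnq1ot1 start in kb; open circles in the bottom strip mark genes with too few counts to test. Kcnq1ot1 (1.18), Tnfrsf22 (0.88) and Cd81 (0.86) are the highest points, Slc22a18 (-2.55) the lowest, and Phlda2 (-0.07) and Nap1l4 (0.06) lie near 0.

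By the distance of log2(CPM + 0.5) over the 6 libraries, centred on the control mean, the genes whose pattern was most like Kcnq1ot1 were Dusp2 (distance 0.19), Gm1141 (0.20) and Nacc2 (0.22). Their fitted log2 fold changes were 1.57, 1.89 and 1.19, against 1.18 for Kcnq1ot1; the added 0.5 shrinks differences of low genes. This describes likeness over 6 libraries in 2 groups.

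H19, the noncoding RNA gene at chr7:142575529-142578143 on the minus strand, is expressed from the maternal copy and shares enhancers with Igf2, the gene of a fetal growth factor. It had 0 counts in each ETV4 KO library, against 3, 4 and 9 counts in control replicates 1, 2 and 3. Taking 3 counts over the group as the limit for the ETV4 KO cells, and the 16 control counts as exact, H19 was 5.65-fold lower in ETV4 KO cells. That limit covers counting error in the ETV4 KO group only, so the fold is not a lower bound. Of the 16 control counts 9 came from control replicate 3. The fold was 3.59 without that sample and 3.55 without ETV4 KO replicate 1. The level was low in both groups, at 0.224 CPM on average in control cells and at most 0.0388 CPM in ETV4 KO cells. Igf2, Igf2os, Ins2 and Th had 0 counts in all 6 libraries. Of other genes near H19, the lysosomal protease gene Ctsd rose by 0.52 and the synaptotagmin gene Syt8 by 0.56, the mitochondrial ribosomal gene Mrpl23 fell by 0.20, and Tnnt3 was at -0.34 (SE 0.37, edgeR adjusted p = 0.42). Lsp1 was not tested, with 3, 4 and 4 counts in ETV4 KO libraries and 7, 14 and 13 in control libraries.

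Mest showed the most pronounced difference of the 5 tested members. The gene encodes an enzyme-like protein of the alpha/beta hydrolase fold, is expressed from the paternal copy and is linked to fetal growth in the mouse. It lies at chr6:30723547-30748465 on the plus strand. Its counts were 292, 239 and 241 in ETV4 KO libraries, against 1317, 1488 and 1191 in control libraries, or 10.2, 9.65 and 10.1 CPM in ETV4 KO cells and 56.8, 54.9 and 52.4 CPM in control cells. Even the highest ETV4 KO library was far below the lowest control. The log2 fold change was -2.45 (SE 0.06, edgeR adjusted p = 9e-25), a 5.48-fold fall, and it lay between -2.50 and -2.28 under the alternatives tried. Per kilobase of exon Mest was at 2.53 CPM in ETV4 KO and 13.9 CPM in control cells.

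The adjacent genes fell too, by less. Copg2, a coat protein gene that runs towards Mest from the other strand and overlaps its last 912 bases, had 36.2, 34.9 and 37.6 CPM in ETV4 KO cells, against 62.7, 60.2 and 62.6 CPM in control cells. Its log2 fold change was -0.77 (SE 0.046), and that of Cep41, a centrosomal protein gene, was -0.51 (SE 0.082). Reads in the overlap of Mest and Copg2 depend on the strand setting of the counting. Klf14 and Tsga13 had 0 counts. All 31 other tested genes within 2.5 Mb had a log2 fold change above that of Mest, the lowest being -1.24, with a median of -0.10; 7 were called higher and 13 lower.

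Igf2r encodes the receptor that carries the growth factor IGF2 and proteins tagged with mannose 6-phosphate to the lysosome; in the mouse it is expressed from the maternal copy. It was the most abundant member, on either scale, in ETV4 KO cells. The gene (chr17:12682406-12769664, minus strand) had 272.9, 263.1 and 264.2 CPM in ETV4 KO cells, against 201.3, 192.4 and 192.5 CPM in control cells. The groups did not overlap and the log2 fold change was 0.45 (SE 0.033, edgeR adjusted p = 4.49e-13). Over 446 other genes of chromosome 17 with a log2 CPM above 3, the median log2 fold change was 0.37. Within 2.5 Mb, 13 of the 19 other tested genes, whatever their level, were called higher and 1 lower, with a median of 0.56. With the 10 Mb bin median taken out, Igf2r was at -0.11 (edgeR adjusted p = 0.00369), which is the opposite direction. It did not pass a test against a 1.5-fold change (edgeR glmTreat adjusted p = 1). Airn, the noncoding RNA that silences Igf2r on the paternal copy in the mouse, had 18, 10 and 19 counts in ETV4 KO libraries, against 17, 9 and 15 in control libraries, or 0.11 on the log2 fold scale (SE 0.35, edgeR adjusted p = 0.787). Airn overlaps 28354 bases of the Igf2r span, with 0 bases of exon in common. Slc22a2 and Slc22a3 had 0 counts, and Mas1 and Plg at most 2 counts per library.

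Impact, expressed from the paternal copy in the mouse, encodes a protein that binds GCN1 and thereby restrains the amino acid sensor kinase GCN2. The gene lies at chr18:12955852-12992950 on the plus strand. It had 1381, 1171 and 1190 counts in ETV4 KO libraries, against 747, 857 and 702 in control libraries. Scaled, these were 48.2, 47.3 and 49.8 CPM in ETV4 KO cells and 32.2, 31.6 and 30.9 CPM in control cells. The groups were well separated, at a log2 fold change equal to 0.62 (SE 0.049, edgeR adjusted p = 2.22e-12), which was 0.36 with the bin median taken out. It did not pass a test against a 1.5-fold change (edgeR glmTreat adjusted p = 0.547). Of the 18 other tested genes within 2.5 Mb 13 were called higher and 2 lower, with a median of 0.26. Nearby Osbpl1a had 0.18 (SE 0.069), a call lost without ETV4 KO replicate 1 or 3, without control replicate 2 or 3 (edgeR adjusted p = 0.0647 to 0.0869). With the bin median taken out it was at -0.12 and not called (edgeR adjusted p = 0.13). The call was also lost with DESeq2 (adjusted p = 0.0547), upper-quartile factors (0.0617) or library size only (0.092). Hrh4 had 0 counts.

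**Figure D4:**
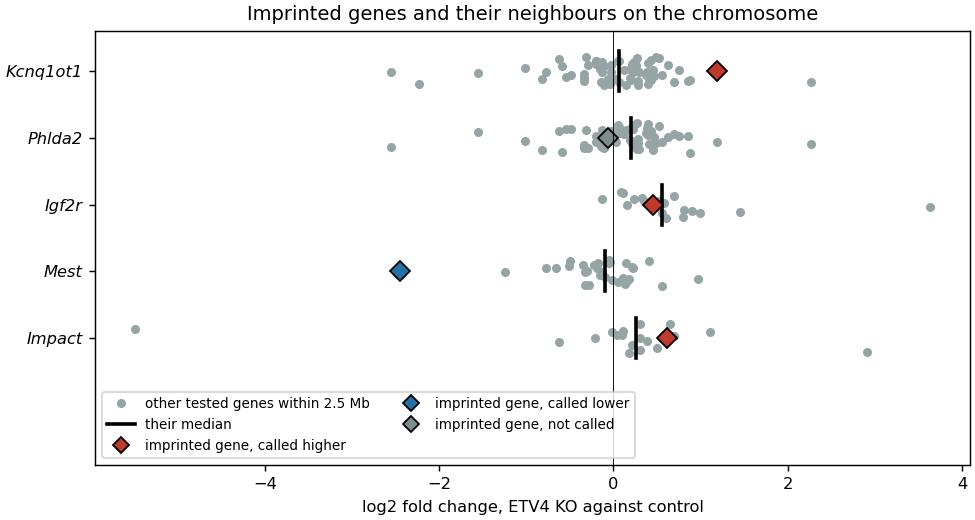
Log2 fold change (ETV4 KO against control) of each tested imprinted gene (diamonds) beside the other tested genes within 2.5 Mb (grey points, vertical position spread at random) and their median (black bars). Mest (-2.45) lies below all 31 of its neighbours and Kcnq1ot1 (1.18) above 64 of 65, whereas Igf2r (0.45) lies below its neighbours' median of 0.56.

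For Kcnq1ot1 the same window held 65 other tested genes with a median of 0.07, of which 32 were called higher and 18 lower. The single neighbour above it was Shank2, at 2.27, named after its value was seen. Taking out the bin median left Kcnq1ot1 at 1.04, still called.

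The remaining members were hardly or not detected. Grb10, an adaptor that damps signalling from the insulin and IGF1 receptors, and Peg10, a retrotransposon-derived gene needed for the placenta in the mouse, had 0 counts in all 6 libraries, which allows at most 0.02 CPM over the 6. Peg3, a zinc finger gene expressed from the paternal copy, had 0, 0 and 2 counts in ETV4 KO libraries and 0 in each control library. None of the listed genes of the Peg3 domain passed the count filter. Next to Peg3, Usp29 and Zim3 had 0 counts and Zim1 had 1. Next to Peg10, the paternally expressed Sgce had 1 count, Pon1, Calcr and Tfpi2 had at most 1 count per library, and 5 listed genes were tested. Of those, Pon2 rose by 0.25, Asb4 fell by 1.23 (SE 0.18) and Casd1 fell by 0.34, while Ppp1r9a had 0.11 (SE 0.062, edgeR adjusted p = 0.125) and Pon3 had 0.11 (SE 0.099, edgeR adjusted p = 0.329). Next to Grb10, Ddc and Ikzf1 had 0 counts, Cobl rose by 0.88 (SE 0.068) and Fignl1 had 0.03 (SE 0.056, edgeR adjusted p = 0.664), which became a called 0.41 with the bin median taken out on chromosome 11.

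A list of 54 other imprinted mouse genes, some of them in the domains above, had 50 in the table, of which 19 had 0 counts in all 6 libraries. The silent genes included Dlk1, Rtl1, Dio3, Ndn, Magel2 and Peg12. Of the 23 tested 9 were called higher, 8 lower and 6 were not called, with a median log2 fold change of 0.11; the background shares were 35.0% and 36.0%. With the bin medians taken out 7 were higher and 7 lower, with a median of -0.05. Beside Slc22a18, Asb4 and Cd81, the most changed was Plagl1, a paternally expressed zinc finger gene, with 13, 12 and 26 counts in ETV4 KO libraries, against 2, 4 and 6 in control libraries. The libraries did not overlap, and its log2 fold change was 1.98 (SE 0.48, edgeR adjusted p = 0.000594; 1.49 to 2.42 when single samples were left out).

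A list of imprint maintenance and Polycomb genes, which also held the DNA demethylase genes Tet1, Tet2 and Tet3, moved both ways. Of its 17 tested members 8 were called higher and 4 lower, with a median of 0.04. Over all tested genes 35.0% were higher and 36.0% lower. The 4 lower were Suz12 (-0.39), Setdb1 (-0.31), Tet3 (-0.30) and Tet2 (-0.18). With the bin medians taken out Suz12 and Tet3 were not called, and with DESeq2 Tet2 was not (adjusted p = 0.101). Tet1 was not tested, with 0, 1 and 0 counts in ETV4 KO libraries and 14, 10 and 9 in control libraries. Zfp57, whose zinc finger protein protects methylated imprints in the mouse embryo, had 5.46 ± 0.31 CPM in ETV4 KO cells and 2.89 ± 0.029 CPM in control cells (SD, n = 3 each), and its fold change on the log2 scale was 0.91 (SE 0.13). Dnmt3b, a de novo DNA methyltransferase gene, rose by 0.88 (SE 0.096). Smchd1, a chromatin silencing factor gene, rose by 0.82 (SE 0.039) and Uhrf1, the partner of the maintenance methyltransferase, by 0.53 (SE 0.031). Zfp57, Smchd1 and Uhrf1 lie on chromosome 17 and stood at 0.61, 0.40 and 0.20 after the bin medians were removed, each still called. Dnmt1, the maintenance methyltransferase gene, was at 0.04 (SE 0.031, edgeR adjusted p = 0.258) and was called higher, at 0.12, with the bin median taken out.

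On the insulin and IGF axis, where Igf2r and Grb10 act, 7 of 15 tested genes were higher and 6 lower. Their median was 0.06, and 4 were higher and 5 lower with the bin medians taken out. The shares over all tested genes were 35.0% higher and 36.0% lower. The 15 also held 2 genes tied to lysosomal sorting, Ctsd (called higher) and the mannose 6-phosphate receptor gene M6pr (called lower, at -0.33). The ligand genes were hardly detected: Igf2 had 0 counts and Igf1 had 1. Irs1, the substrate through which the insulin and IGF1 receptors signal, had 14.2 ± 0.72 CPM in ETV4 KO cells and 2.35 ± 0.23 CPM in control cells (SD, n = 3 each), and its fold change on the log2 scale was 2.59 (SE 0.11, edgeR adjusted p = 1.19e-18). The adaptor gene Grb7, a relative of Grb10, fell by 1.48 (SE 0.051), the mRNA-binding protein gene Igf2bp1 rose by 1.26 (SE 0.07) and the binding protein gene Igfbp7 fell by 0.71 (SE 0.046). The receptor genes were close to 0: Igf1r had 0.09 (SE 0.038, edgeR adjusted p = 0.0302) and Insr -0.12 (SE 0.042, edgeR adjusted p = 0.0123). The call of Igf1r was lost without ETV4 KO replicate 1 (edgeR adjusted p = 0.103) or 3 (0.108) and without control replicate 2 (0.0616) or 3 (0.1005), and turned to -0.15 with the bin median taken out. It was also lost with upper-quartile factors (0.19), library size only (0.335) or DESeq2 (0.052). The call of Insr was lost without control replicate 1 (0.128) and with the bin median taken out (0.217).

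Cdkn1c aside, the CDK inhibitor and G1 cyclin list had 12 tested members, 9 higher and 3 lower, with a median of 0.23; with the bin medians taken out 5 were higher and 3 lower. All 12 were called, where 35.0% of all tested genes were higher and 36.0% lower. The list also held kinase genes, and the 3 lower were Cdkn1b, Cdk2 (-0.35) and Cdk4 (-0.08, edgeR adjusted p = 0.0278). Cdk4 lost its call without ETV4 KO replicate 1 or 3 and without control replicate 2 or 3 (edgeR adjusted p = 0.0613 to 0.137). It was also lost with no low-count filter (0.0632) and with the bin median taken out (0.156). Ccnd2, a D-type cyclin gene, rose by 0.86 (SE 0.072), Cdkn2d, a CDK4 and CDK6 inhibitor gene, by 0.41 (SE 0.05), and Cdk6 by 0.37 (SE 0.0405). Of the other genes of the Cdkn1 family, Cdkn1b fell by 0.36 (SE 0.034), to 143.2 ± 3.30 CPM in ETV4 KO cells, against 184.3 ± 0.43 CPM in control cells (SD, n = 3 each). Cdkn1a had 0.10 (SE 0.044, edgeR adjusted p = 0.0389), a call lost without ETV4 KO replicate 2 or 3 and without each control replicate in turn, at edgeR adjusted p-values of 0.0522 to 0.18, and turned to -0.26 with the bin median taken out. It was also lost with upper-quartile factors, library size only, DESeq2 and a CPM filter (adjusted p = 0.0518 to 0.302). Cdkn2a and Cdkn2b had 0 counts in all libraries. In the PHLDA family, Phlda1 rose by 0.35 (SE 0.041) and Phlda3 fell by 0.69 (SE 0.055), with Phlda2 between them.

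Genes that work with Impact in amino acid sensing were higher in 6 of 8 cases and lower in 0 (5 and 0 with the bin medians taken out), with a median of 0.20; over all tested genes 35.0% were higher and 36.0% lower. Eif2ak4, which encodes the kinase GCN2, had 50.6 ± 2.19 CPM in ETV4 KO cells and 39.5 ± 1.04 CPM in control cells (SD, n = 3 each), and its fold change on the log2 scale was 0.36 (SE 0.048). Gcn1l1, the gene of its activator GCN1, rose by 0.30 (SE 0.034). Trib3 and Ddit3, stress genes downstream of the pathway, rose by 0.60 (SE 0.095) and 0.21 (SE 0.069). Ddit3 had no assigned position, so its call with the bin medians taken out is the unadjusted 0.21. Atf4, the transcription factor gene of that pathway, which is controlled mainly in translation, was at -0.01 (SE 0.032, edgeR adjusted p = 0.796); it and Sesn2, the 2 that were not called, are named after their values were seen. These lists were picked with earlier results of the same samples known, so their counts are a description.

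**Figure D5:**
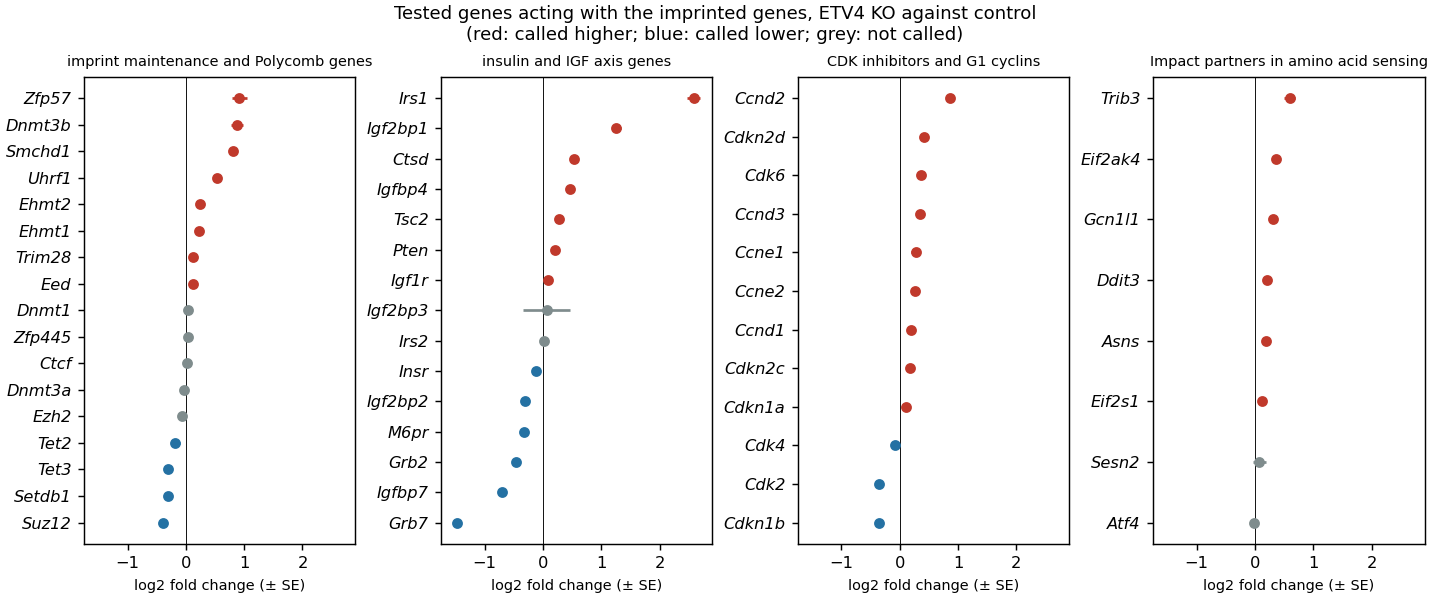
Log2 fold change (ETV4 KO against control, ± SE) of every tested gene in 4 lists of genes that act with the imprinted genes, ordered within each list; red points were called higher, blue lower and grey not called. Irs1 (2.59) and Grb7 (-1.48) are the extremes, and Dnmt1 (0.04) and Atf4 (-0.01) lie near 0.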

How the data were processed

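Raw counts per gene for 31017 symbols in 6 libraries were deposited by the authors as 1 table; the unit was taken from the values, which are whole numbers with a different total per library. Per the submitters' processing notes, the tools were STAR 2.7.9a, featureCounts, FastQC 0.11.9 and R 4.1.1 and the builds mm10 and hg38, with no role or order stated; the strand setting, the annotation and the treatment of reads with several matches are unstated in the sources used. Samples were grouped by title, and columns matched by library name.

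Counts were tested with edgeR 4.0.16 in R 4.3.3: filterByExpr (minimum count 10, minimum total 15), TMM factors, the quasi-likelihood fit and test (glmQLFit, glmQLFTest) on group alone, and Benjamini-Hochberg adjustment over all 12076 genes kept, called under 0.05. CPM divide counts by the TMM-scaled total of the kept genes; the SE is the absolute log2 fold change over the square root of F, and 95% intervals are normal. Where a group had 0 counts, the limit is 3 counts over the group, for counting error in that group only. The planned ratio of Kcnq1ot1 to Cdkn1c has no value, since Cdkn1c had 0 counts in each ETV4 KO library. Positions and exon lengths are from GENCODE M21 (GRCm38, mm10), and promoter sequences are RefSeq's for GRCm38.p6, with the 250 bases before each start searched. The fit was tested on simulated counts with known changes.

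All 10 genes are reported. Named from the lists were every tested domain gene, those at 0 (1 is not reported here), up to 4 called genes per other list with the largest change, and partners of the members. Tet1, the lower genes of the imprint maintenance list, Irs2, M6pr, Cdk2 and Cdk4 were named after their values were seen. The members and lists were chosen with earlier results of these data known. Alternatives were RLE and upper-quartile factors, library size only, DESeq2 1.42.0, limma-voom 3.58.1, no filter, a CPM filter, a replicate block, each sample left out, an adjusted p under 0.01, glmTreat against 1.5-fold, and the median log2 fold change of the expressed genes in a gene's 10 Mb bin (its chromosome where under 10) entered as an offset. Genes without an assigned position, Ddit3 among them, had no such offset.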

Additional observations from a re-analysis of the deposited data

How the results depend on the processing

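Under 16 of 17 alternatives the number of members called was 4 or 5 (4 as reported), and the number called over the whole table was within 1.5 times of 8582. The exception in both was glmTreat against a 1.5-fold change, with 2 members (1 higher, 1 lower) and 1684 genes (735 higher, 949 lower), since it asks for a larger change. Leaving out single samples gave 4 members each time and 8152 to 8519 genes. Kcnq1ot1 and Mest kept direction and call under all 17. With the 10 Mb bin median taken out, 2 members were called higher and 3 lower: Phlda2 was called lower at -0.25 and Igf2r turned to -0.11; the cause was not tested. Impact lost its call only under glmTreat. The groups share replicate numbers, but no label ties same-numbered samples, so the numbers were not taken as pairs. Deviations from the group mean correlated at r = 0.214, 0.217 and -0.00947 for same-numbered samples 1, 2 and 3. For unlike-numbered samples r ran from -0.289 to 0.108. Whether replicates 1 and 2 share an effect was not tested. A replicate block gave 4 members and 8882 genes, with Kcnq1ot1 at 1.18, Phlda2 at -0.07 and Nap1l4 newly called at 0.06. No ratio of Kcnq1ot1 to Cdkn1c could be formed, since Cdkn1c had 0 counts in each ETV4 KO library. Depth limits the 5 untested members and the genes with few counts, such as Slc22a18 and Plagl1. With 3 counts as the limit in ETV4 KO cells, H19 was 3.55-fold to 6.73-fold lower when single samples were left out. That alternative was chosen after seeing the data. H19 passed the test without the low-count filter (edgeR adjusted p = 0.000403).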
